A study of Mus musculus with 16 samples.

Results

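The small proline-rich protein (Sprr) genes of the mouse were followed in dorsal skin of males and females after UVB irradiation. The 10 genes described are Sprr1a, Sprr1b, Sprr2a1, Sprr2b, Sprr2d, Sprr2e, Sprr2f, Sprr2h, Sprr3 and Sprr4. They were chosen by symbol from the 55359 gene identifiers that each count table holds. RNA of whole dorsal skin was sequenced from 16 wild-type C57Bl/6 mice aged 8 weeks, whose hair follicles were labelled as resting (telogen). The labels give the strain as C57Bl/6 and the study's text as the substrain C57Bl/6N. There were 4 mice in each of the groups of no-UVB males, UVB males, no-UVB females and UVB females. Irradiated skin had been shaved, exposed to UVB 3 times and collected 6 h after the last exposure. The sources used here do not say whether unirradiated skin was shaved, so shaving and UVB cannot be told apart. Each library is labelled as a separate sample, and the p-values measure the spread between these samples.

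SPRR proteins are short, proline- and glutamine-rich building blocks of the cornified envelope, the protein shell that replaces the plasma membrane of a keratinocyte as it dies at the skin surface. Transglutaminases cross-link them to loricrin, involucrin and other envelope proteins, where they act as flexible bridges. The genes lie together in the epidermal differentiation complex, and several of them are known as genes of stressed, inflamed or UV-exposed epithelium.

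All 10 genes lie on chromosome 3 of GRCm39 within 284.7 kb, between 92123106 and 92407800. With Sprr5, which follows Sprr4, and 7 genes and pseudogenes among them, the count tables hold 18 Sprr identifiers. Sprr2a1, Sprr2b, Sprr2d, Sprr2e, Sprr2f and Sprr2h are read from the plus strand, and Sprr1b, Sprr3, Sprr1a and Sprr4 from the minus strand. Reads that fitted several places equally well were left out of the counts, so the sequence that a gene shares with its relatives is not counted. Of all 100-base windows of the Sprr2a1 transcript, 96.6% occur letter for letter in a transcript of another gene, mostly Sprr2a2, with which it also shares exons, and its count is therefore uncertain. The same share was 1.09% for Sprr2e, 0.407% for Sprr2b and 0 for the other 7 genes. At a length of 50 bases it was 13.2% for Sprr2b, 10.2% for Sprr2e, 4.27% for Sprr2d and 0.714% for Sprr2f.

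The sequences upstream of the genes are shown because most of the genes moved together, and because AP-1 factors, dimers of Fos and Jun proteins, are known regulators of Sprr genes. In the 250 bases before the RefSeq start, the AP-1 motif TGANTCA was found in 7 of the 10 genes and in 6.75% of 32851 mouse promoters searched on both strands. The motif reads the same on both strands except for its middle base. It was not in the windows of Sprr2a1, Sprr3 and Sprr4, which says only that these letters are not there. Sprr4 is annotated as a single exon of coding sequence, so its window may not lie at a start of transcription. The sequences are RefSeq's, from GRCm38.p6, and were placed on GRCm39 by exact match. The window of Sprr2a1 matched 3 places on chromosome 3 and was not placed. Around the AP-1 motif nearest to the start, shown in capitals with 12 bases on each side and read 5′ to 3′ on the gene's strand, the 7 genes have these letters.
Sprr1a: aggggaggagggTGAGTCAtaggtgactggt
Sprr1b: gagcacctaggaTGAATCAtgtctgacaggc
Sprr2b: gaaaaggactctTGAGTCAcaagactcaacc
Sprr2d: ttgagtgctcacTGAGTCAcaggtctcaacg
Sprr2e: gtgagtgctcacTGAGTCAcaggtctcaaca
Sprr2f: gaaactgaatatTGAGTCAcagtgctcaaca
Sprr2h: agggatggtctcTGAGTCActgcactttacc

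In the 5 Sprr2 genes of this set the motif began 193 to 198 bases before the start. It began 111 bases before the start in Sprr1b, and 146 and 116 bases before it in Sprr1a, which has 2 matches. A TATA box, TATAAA, was found in 8 of the 10 windows and in 12.4% of all promoters, and it began 29 bases before the start in all 5 of these Sprr2 genes. GGAANT, an Ets-type core with its flank, was in 8 of the 10 windows and in 47.1% of all promoters, so it sets the genes apart least. Longer windows are shown for both Sprr1 genes, for Sprr2h, the most abundant of the Sprr2 genes after UVB, and for Sprr2e, whose response differed between the sexes. Capitals mark the AP-1 motif and the TATA box, and the windows of Sprr1a and Sprr1b stop short of the first exon that GENCODE places a little further upstream.
Sprr1a, chr3:92393209-92393438: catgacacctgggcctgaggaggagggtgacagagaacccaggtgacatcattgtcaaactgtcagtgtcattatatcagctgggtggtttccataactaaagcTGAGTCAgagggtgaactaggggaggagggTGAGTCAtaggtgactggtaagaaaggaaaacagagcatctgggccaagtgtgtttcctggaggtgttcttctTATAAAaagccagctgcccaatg
Sprr1b, chr3:92346097-92346336: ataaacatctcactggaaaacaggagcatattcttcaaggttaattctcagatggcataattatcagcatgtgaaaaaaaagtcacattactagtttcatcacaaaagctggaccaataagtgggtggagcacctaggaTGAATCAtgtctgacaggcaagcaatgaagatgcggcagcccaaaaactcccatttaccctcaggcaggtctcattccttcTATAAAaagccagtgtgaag
Sprr2e, chr3:92259200-92259449: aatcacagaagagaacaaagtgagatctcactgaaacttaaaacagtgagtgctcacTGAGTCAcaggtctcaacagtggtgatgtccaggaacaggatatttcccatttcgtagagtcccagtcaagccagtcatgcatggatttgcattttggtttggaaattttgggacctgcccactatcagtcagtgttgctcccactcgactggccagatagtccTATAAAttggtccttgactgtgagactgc
Sprr2h, chr3:92292742-92292991: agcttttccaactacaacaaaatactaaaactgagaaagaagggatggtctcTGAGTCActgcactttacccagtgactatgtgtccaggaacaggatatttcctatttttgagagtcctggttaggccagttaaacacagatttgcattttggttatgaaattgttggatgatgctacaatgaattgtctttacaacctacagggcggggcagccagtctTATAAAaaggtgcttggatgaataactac

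The windows of Sprr2d and Sprr2e were the most alike among the 10 genes. Identity over the aligned bases was 89.3% between Sprr2d and Sprr2e, 66.0% between Sprr2e and Sprr2h and 55.9% between Sprr1a and Sprr1b. The window of Sprr2a1, the Sprr2 member in which no AP-1 motif was found, was 51.2% identical to that of Sprr2e. Identity was 48.5% between Sprr1a and Sprr4 and 50.2% between Sprr3 and Sprr4, so 51.2% shows no particular likeness. The Sprr2a1 window also held no TATA box and matched 3 places on chromosome 3, so it may not lie at this gene's start.

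Between 16495776 and 33404831 reads per library lay on genes, and the values below are CPM, counts brought to a common library size with TMM scaling, which also corrects for differences in library composition. Defining genes of skin were abundant in every library, with summed levels of 9377 to 34548 CPM for 6 keratinocyte markers and 9091 to 65275 CPM for 5 fibroblast markers. Krt4 and Krt13, keratins of internal stratified epithelium, summed to at most 2.16 CPM. No-UVB males 3 and 4 stood apart from the other libraries and from their telogen label, with 42.5 and 81.2 CPM over 6 keratins of the hair shaft and inner root sheath against 0.613 to 3.35 CPM in all others. Fibroblast markers summed to 59360.5 to 65275 CPM in no-UVB males and to 9091 to 27503 CPM in the other groups. Results in which unirradiated males take part are given with and without males 3 and 4 where a call changes. In whole skin, fewer cells of a type and less RNA per cell cannot be told apart.

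Nearly the whole family was higher after UVB in males. Of the 10 genes, 9 had enough counts to be tested and all 9 were called higher, at an adjusted p under 0.1 and a log2 fold change past 1, where 4.08% of 16535 tested genes were called higher and 3.31% lower. The median log2 fold change over the 9 genes was 6.04, against -0.02 over all tested genes. In the same 9 genes every UVB male was above every no-UVB male, as it was in 22.9% of all tested genes.

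**Figure D1:**
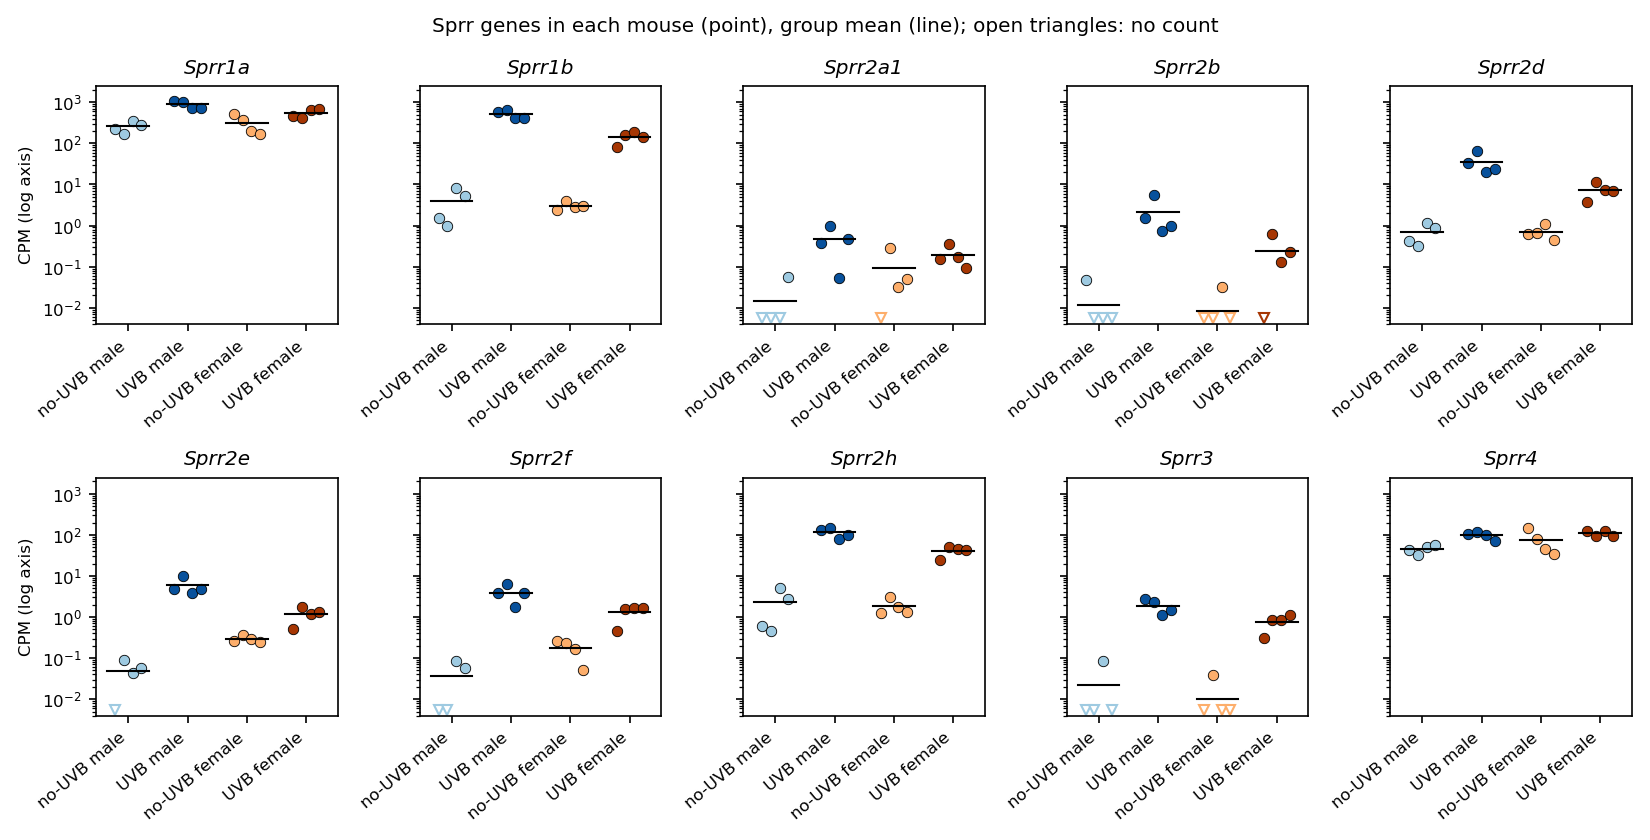
CPM of the 10 Sprr genes in each of the 16 mice, on a log axis shared by all panels, with 1 point per mouse, a line at the group mean and open triangles for mice without a count. Sprr1b, Sprr2h and Sprr2d sit in separate ranges before and after UVB in both sexes, while the female ranges of Sprr1a and Sprr4 overlap.

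Sprr1b (chr3:92344116-92346096), an envelope precursor, was scarce in unirradiated males and abundant after UVB. It measured 1.49, 0.967, 8.36 and 5.28 CPM in the 4 no-UVB males and 590.4, 665, 419 and 408 CPM in the 4 UVB males. The lowest irradiated male was thus far above the highest unirradiated one, and males 3 and 4 were the higher of the no-UVB males. The log2 fold change was 7.03 ± 0.599 (SE, edgeR's quasi-likelihood test, adjusted p = 7.92e-05), and 8.76 without no-UVB males 3 and 4.

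Sprr1a (chr3:92390424-92393208), known also as a gene that injured neurons switch on, was abundant before UVB. The no-UVB males had 229, 172, 355 and 286 CPM and the UVB males 1063, 1045, 711 and 744 CPM. The ranges did not overlap, but the change was much smaller than that of Sprr1b, with a log2 fold change of 1.79 ± 0.237 (SE, edgeR adjusted p = 0.000314). Sprr4 (chr3:92407570-92407800), an envelope precursor of the epidermis that lies next to Sprr1a, had 43.2, 32.0, 49.7 and 56.1 CPM without UVB and 105, 115, 100.3 and 71.1 CPM with it. Its log2 fold change, 1.14 ± 0.194 (SE, edgeR adjusted p = 0.00135), was the smallest of the 9 and close to the threshold of 1. The 2 genes that were already abundant in resting skin were therefore the ones that rose least.

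Among the Sprr2 genes, Sprr2h and Sprr2d reached the highest levels. Sprr2h (chr3:92292992-92294631) had 0.606, 0.460, 5.20 and 2.81 CPM in no-UVB males and 133, 151, 80.7 and 98.7 CPM in UVB males. Its log2 fold change was 5.68 ± 0.584 (SE, edgeR adjusted p = 0.000197), and 7.79 without no-UVB males 3 and 4, which again held the higher values of their group. Sprr2d (chr3:92246447-92248180) had 0.419, 0.322, 1.13 and 0.860 CPM without UVB and 34.2, 63.7, 20.4 and 23.8 CPM with it. The log2 fold change of Sprr2d was 5.71 ± 0.567 (SE, edgeR adjusted p = 0.000136), close to that of Sprr2h.

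Sprr2e, Sprr2f, Sprr2b and Sprr3 were almost absent from unirradiated males, so their fold is limited by counting. Sprr2e (chr3:92259450-92260756) had 0, 2, 1 and 1 counts in the 4 no-UVB males and 158, 157, 74 and 94 counts in the UVB males, a ratio of 118 after scaling for depth (exact 95% interval 45.7 to 434). Sprr2f (chr3:92272494-92273749), known mostly as an oestrogen-induced gene of the uterus, had 0, 0, 2 and 1 counts against 124, 100, 34 and 72 (ratio 107, interval 36.4 to 522). Both genes thus passed from a few reads over the group to at least 34 in each mouse. Sprr2b (chr3:92223927-92225444) had a single count in the 4 no-UVB males and 50, 85, 14 and 19 counts in the UVB males (ratio 164, interval 29.0 to 6504). Sprr3 (chr3:92363809-92366031), known from the oesophagus and other internal squamous epithelia, had 2 counts, both in no-UVB male 3, against 86, 36, 21 and 29 (ratio 83.8, interval 22.8 to 698). All 4 were called higher, with edgeR adjusted p-values of 4.92e-06, 2.05e-05, 0.00151 and 1.9e-05 in this order. With these 4 genes set to the lower end of their intervals, which cover counting error only, the median log2 fold change over the 9 genes was 5.18.

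All 9 calls in males were kept with any 1 mouse left out, but some folds moved by over 1.5 times. Without no-UVB male 3 the log2 fold change was 7.77 for Sprr1b, 6.62 for Sprr2h and 7.47 for Sprr2f. That of Sprr2b was 6.03 without UVB male 2. Without no-UVB male 3 no count of Sprr3 was left in unirradiated males, and without no-UVB male 1 none of Sprr2b, so no fold is given for these.

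Sprr2a1 (chr3:92123106-92129218), related to a Sprr2 protein of the gut lining, had too few counts to be tested in any comparison. It had 1 count over the no-UVB males and 12, 15, 1 and 9 counts in the UVB males (ratio 36.1, exact 95% interval 6.08 to 1462). UVB male 3 did not stand above the unirradiated males.

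In females fewer of the genes were called higher after UVB. Of the 10 genes 7 were tested and 5 were called higher, against 1.63% of 16883 tested genes, and none was called lower (1.08% of tested genes). These were Sprr1b, Sprr2d, Sprr2e, Sprr2f and Sprr2h, and the median log2 fold change over the 7 was 2.88 (all tested genes, 0.00). Every UVB female was above every no-UVB female in 6 genes, these 5 and the untested Sprr3, as in 11.1% of all tested genes.

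Of the 7 tested genes Sprr1b had the largest fold change in females. The no-UVB females had 2.38, 3.88, 2.78 and 3.03 CPM and the UVB females 80.3, 163, 187 and 140.2 CPM. The groups were far apart and the log2 fold change was 5.57 ± 0.290 (SE, edgeR adjusted p = 2.3e-05). Sprr2h followed, with 1.26, 3.05, 1.74 and 1.31 CPM without UVB and 24.4, 51.0, 45.8 and 43.2 CPM with it. Its log2 fold change in females was 4.47 ± 0.313 (SE, edgeR adjusted p = 9.4e-05).

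The other Sprr2 genes changed less in females. Sprr2d had 0.606, 0.674, 1.08 and 0.455 CPM without UVB and 3.65, 11.8, 7.50 and 6.79 CPM with it, a log2 fold change of 3.36 ± 0.385 (SE, edgeR adjusted p = 0.000610). Sprr2f had 6, 6, 5 and 1 counts in no-UVB females and 9, 44, 39 and 36 in UVB females, and rose by 2.88 ± 0.478 on the log2 scale (SE, edgeR adjusted p = 0.00360). Sprr2e had 6, 9, 9 and 5 counts against 10, 50, 27 and 29, and rose by 2.05 ± 0.379 on the log2 scale (SE, edgeR adjusted p = 0.00572). UVB female 1 held the lowest irradiated value of each of these 5 called genes, and of 7 of the 10 genes in all.

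Sprr1a and Sprr4 were not called in females, and their groups overlapped. Sprr1a had 507, 364, 203 and 174 CPM without UVB and 454, 421, 668 and 695 CPM with it, a log2 fold change of 0.85 ± 0.326 (SE, edgeR adjusted p = 0.110). Sprr4 had 144, 78.0, 44.7 and 34.0 CPM without UVB and 123, 94.7, 127 and 92.2 CPM with it (log2 fold change 0.55 ± 0.380 SE, edgeR adjusted p = 0.370). No-UVB female 1 held the highest unirradiated value of both. Without that mouse Sprr1a stood at 1.19 (edgeR adjusted p = 0.0260) and Sprr4 at 1.07 (edgeR adjusted p = 0.0271), and 8 of the 10 genes were called higher in females. With any of the other 7 mice left out, neither gene was called.

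The last 3 genes were too scarce for a test in females. Sprr3 had 1 count over the no-UVB females and 6, 23, 20 and 24 counts in the UVB females (ratio 78.3, exact 95% interval 13.6 to 3134). Sprr2b had 1 count without UVB and 0, 17, 3 and 5 with it (ratio 26.8, interval 4.39 to 1101), so 1 irradiated female had none. Sprr2a1 had 9 counts against 19 (ratio 2.26, interval 0.976 to 5.68), and its interval includes 1.

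**Figure D2:**
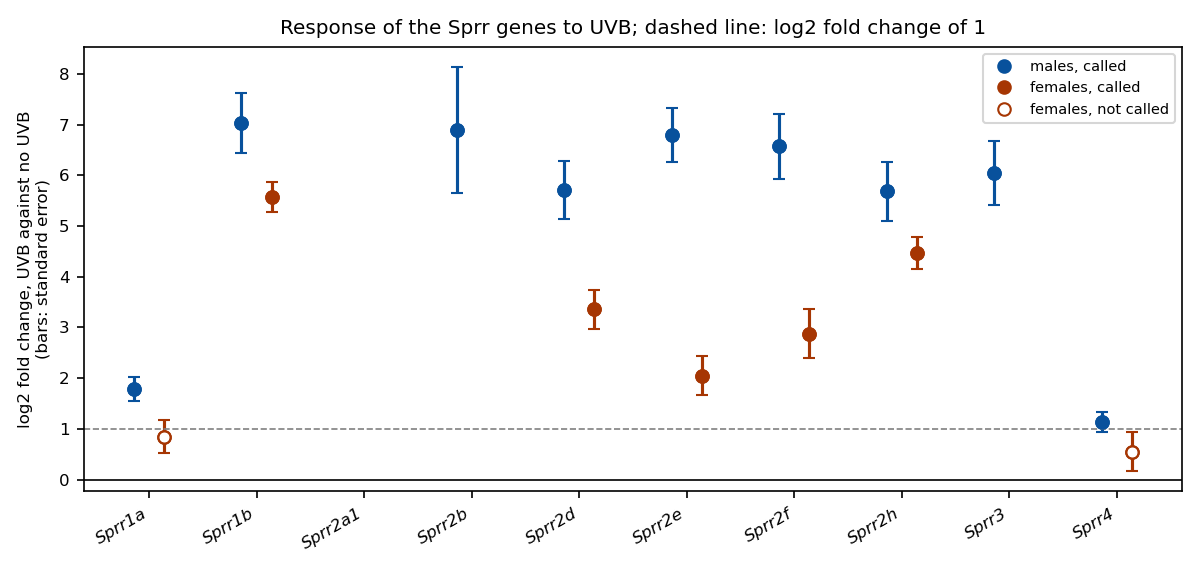
Log2 fold change of each Sprr gene after UVB against no UVB in males and in females (edgeR, 8 mice each), with standard errors as bars and genes without enough counts left blank. In males Sprr1a and Sprr4 lie at 1.79 and 1.14 and the other 7 genes between 5.68 and 7.03.

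The difference between the 2 responses was tested in a fit over all 16 mice. The fitted response was larger in males for Sprr1a, Sprr1b, Sprr2d, Sprr2e, Sprr2f, Sprr2h and Sprr4, by 0.58 to 4.74 on the log2 scale. For Sprr2b and Sprr3, with 1 or 2 counts over the unirradiated mice of each sex, the direction was not fixed. Of the 9 tested genes only Sprr2e and Sprr2f were called, against 2.75% of 17406 tested genes. None had a called smaller response in males, against 4.25%. An unadjusted p under 0.05 was reached by 4 of the 9. For Sprr2e the male response exceeded the female one by 4.74 ± 0.815 (SE, log2, edgeR adjusted p = 0.0114), and for Sprr2f by 3.70 ± 1.08 (SE, log2, edgeR adjusted p = 0.0735). These are also genes with 4 and 3 counts in all unirradiated males, and without no-UVB male 3 the difference of Sprr2f was 4.60. Sprr2e was called with each of the 16 mice left out in turn, and Sprr2f was lost, at an edgeR adjusted p of up to 0.165, without UVB male 1, no-UVB male 1, 2 or 4, or no-UVB female 1, 2 or 3.

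Sprr2d, Sprr1b, Sprr1a and Sprr2h had differences of 2.34 ± 0.789, 1.45 ± 0.648, 0.93 ± 0.444 and 1.20 ± 0.717 (SE, log2), with edgeR adjusted p-values of 0.115, 0.219, 0.247 and 0.356. Without no-UVB males 3 and 4 the differences of Sprr1b, Sprr2h and Sprr2d were 3.16, 3.29 and 3.20, with edgeR adjusted p-values of 0.00973, 0.0215 and 0.0890, and 5 genes were called. Leaving out no-UVB male 3 alone also gave 5. Without any of the 7 mice on which the Sprr2f call depends, 1 gene was called. Sprr2d was also called without UVB female 2 (edgeR adjusted p = 0.0945) or UVB male 3 (edgeR adjusted p = 0.0914), with a replicate block (edgeR adjusted p = 0.0846) and by DESeq2 (2.35, adjusted p = 0.0203). The number of genes whose response differed between the sexes was thus not stable. For Sprr4 the difference was 0.58 ± 0.486 (SE, log2, edgeR adjusted p = 0.531), and for Sprr2b and Sprr3 the counts of unirradiated mice were too few to fix it.

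After UVB itself, without regard to the starting level, 7 of the 9 tested genes were higher in males than in females, where 12.8% of 17406 tested genes were, and none was lower (12.5%). These were Sprr1b, Sprr2b, Sprr2d, Sprr2e, Sprr2f, Sprr2h and Sprr3. The fold was 3.65 for Sprr1b (log2 1.87 ± 0.379 SE, edgeR adjusted p = 0.00561) and 2.81 for Sprr2h (log2 1.49 ± 0.381 SE, edgeR adjusted p = 0.0171). Sprr2b differed by 2.98 ± 0.688 (SE, log2), and by 2.07 without UVB male 2, which holds 85 of the 168 counts of the UVB males, and 4.03 without UVB female 2. The smallest called difference was that of Sprr3, 1.28, which was lost without UVB male 1 (1.04, edgeR adjusted p = 0.105). Every irradiated male was above every irradiated female in 7 genes, as in 11.5% of all tested genes. Sprr3 was not among them and Sprr1a was, though Sprr1a was not called (log2 difference 0.67 ± 0.314 SE, edgeR adjusted p = 0.155, and 0.0983 without no-UVB female 1). Sprr4 was not called, at -0.16 ± 0.341 (SE, log2, edgeR adjusted p = 0.789).

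Keratinocyte markers were also higher in irradiated males, where all 6 of Krt5, Krt14, Krt1, Krt10, Dsp and Perp were called (median log2 difference 0.76) and summed to 24877 to 34548 CPM against 14884 to 18851 CPM in irradiated females. Per 1000 CPM of these markers Sprr1b had 13.6 to 19.5 CPM in UVB males and 5.14 to 10.8 CPM in UVB females, which are separate ranges. Those of Sprr2e were separate too, at 0.127 to 0.290 CPM in UVB males and 0.0330 to 0.120 CPM in UVB females. The ranges overlapped for Sprr2d (0.661 to 1.85 and 0.234 to 0.784 CPM) and Sprr2b (0.0240 to 0.157 and 0 to 0.0409 CPM). They also overlapped for Sprr2h (2.62 to 4.39 and 1.57 to 3.40 CPM), Sprr2f (0.0582 to 0.185 and 0.0297 to 0.112 CPM), Sprr3 (0.0360 to 0.0883 and 0.0198 to 0.0750 CPM) and Sprr1a (23.1 to 35.1 and 28.05 to 46.7 CPM). Sprr4 was lower in males on this scale, where its ranges of 2.86 to 3.45 CPM in males and 6.20 to 7.86 CPM in females were separate. Among the 6 markers Krt1 differed most, with means of 7217 CPM in UVB males and 2324 CPM in UVB females. The part of the keratinocyte markers in the differences between the sexes was not tested.

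Within the irradiated males 1 mouse led most of the family. UVB male 2 held the highest value of 8 of the 10 genes and UVB male 3 the lowest of 8. Sprr2e had 10.02 CPM in male 2 and 3.91 to 4.92 CPM in the other 3. The genes thus ranked the mice in much the same way, as genes measured in 1 library can.

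Without UVB the sexes differed in 1 gene. Sprr2e was lower in males, by a log2 difference of -2.49 ± 0.783 (SE, edgeR adjusted p = 0.0648), where 4.58% of all tested genes were lower in males. None of the 9 genes was called higher in males (7.21% of tested genes), and in none was every male above every female (7.80%). For Sprr2b and Sprr3 neither could have been seen, with 1 or 2 counts over each unirradiated group. Sprr2e had 4 counts over the 4 males and 5 to 9 counts in each female. The call was lost without males 3 and 4, at a difference of -2.53 (edgeR adjusted p = 0.209), and also when no-UVB male 1, 3 or 4 or no-UVB female 1, 2 or 3 was left out alone, with differences of -2.98 to -2.10 over all single mice left out. The other 8 genes lay between -2.18 and 0.90 on the log2 scale, the lowest being Sprr2f at an edgeR adjusted p of 0.227. The Sprr2f difference was -3.08 without no-UVB male 3. Without males 3 and 4 no count of Sprr2f was left in unirradiated males, so no difference is given. Sprr4, at -0.73 ± 0.348 (SE, log2, edgeR adjusted p = 0.233), was called lower in males without no-UVB female 4 (-0.99, edgeR adjusted p = 0.0788).

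**Figure D3:**
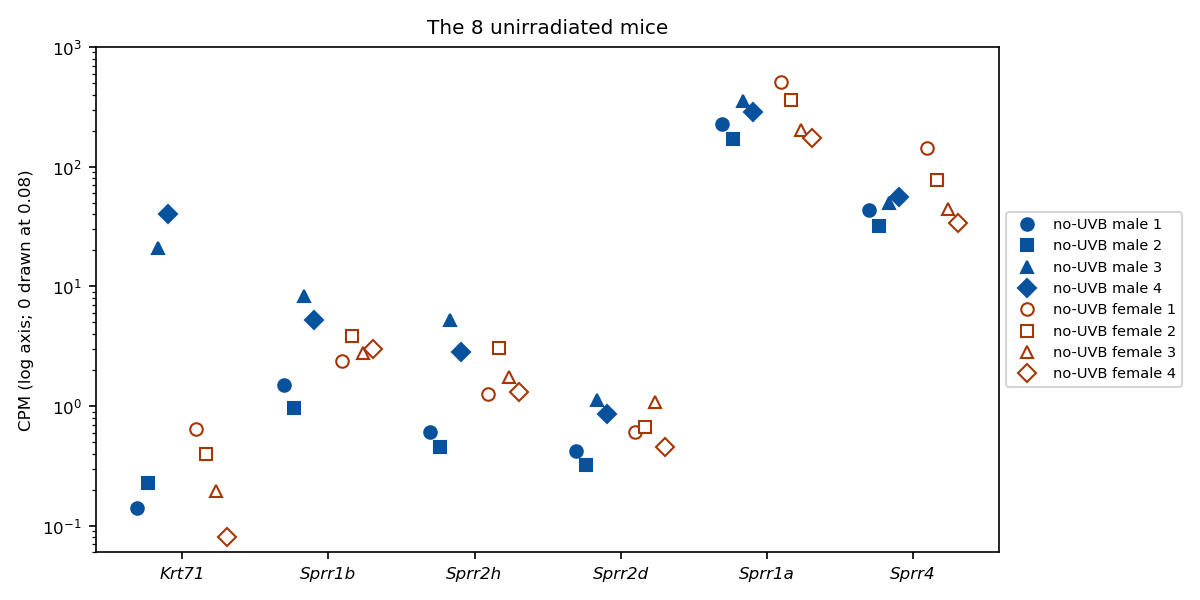
CPM of Krt71, a keratin of the inner root sheath, and of 5 Sprr genes in the 8 unirradiated mice, on a log axis, with a symbol per mouse. No-UVB males 3 and 4 have 21.1 and 39.9 CPM of Krt71, and they are also the 2 highest males for Sprr1b, Sprr2h, Sprr2d, Sprr1a and Sprr4.

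The unirradiated males with hair keratins were also those with more Sprr1b. Krt71 was at 21.1 and 39.9 CPM in males 3 and 4 and at 0.140 and 0.230 CPM in males 1 and 2, and the Sprr1b values of the same pairs were 8.36 and 5.28 CPM against 1.49 and 0.967 CPM. Males 3 and 4 also had the higher sums of the 6 keratinocyte markers, at 16217 and 14677 CPM against 12725 and 10703 CPM in males 1 and 2. The part of the hair keratins or of the keratinocyte markers in the Sprr levels was not tested. Left out together, males 3 and 4 turned the difference between unirradiated males and females from 0.41 to -1.29 for Sprr1b and from 0.29 to -1.79 for Sprr2h (log2), neither of them called.

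Because the genes differ in length, their levels are compared with each other as CPM per kb of exon. Summed over the 10 genes this level was 363 ± 94.5 in no-UVB males, 1818 ± 405 in UVB males, 523 ± 307 in no-UVB females and 1054 ± 146 in UVB females (SD, n = 4 each). In resting skin it was nearly all Sprr4 and Sprr1a, which held 54.5% and 43.3% of it in males and 60.5% and 37.6% in females. The Sprr4 share rests on its coding length, since no untranslated exon is annotated, and a longer transcript would lower it.

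Sprr1b moved from a trace to the front of the family. Its share of the summed level was 1.19% ± 0.839 in no-UVB males and 34.4% ± 0.895 in UVB males, and 0.892% ± 0.460 and 16.2% ± 4.38 in females (SD, n = 4). In UVB males it ranked first, at 627 CPM per kb against 541 for Sprr1a and 423 for Sprr4. It exceeded Sprr1a in 4 of 4 mice although the ranges of the 2 genes overlap between mice, and Sprr1a exceeded Sprr4 in 3 of 4. In UVB females the order was Sprr4 at 472, Sprr1a at 339.5 and Sprr1b at 172 CPM per kb, and Sprr1b was below Sprr1a in 4 of 4 mice. For each 100 CPM per kb of Sprr1a there were 109 to 126 of Sprr1b in UVB males, 35.2 to 76.7 in UVB females and 0.932 to 4.67 in unirradiated mice. The 3 ranges are separate.

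**Figure D4:**
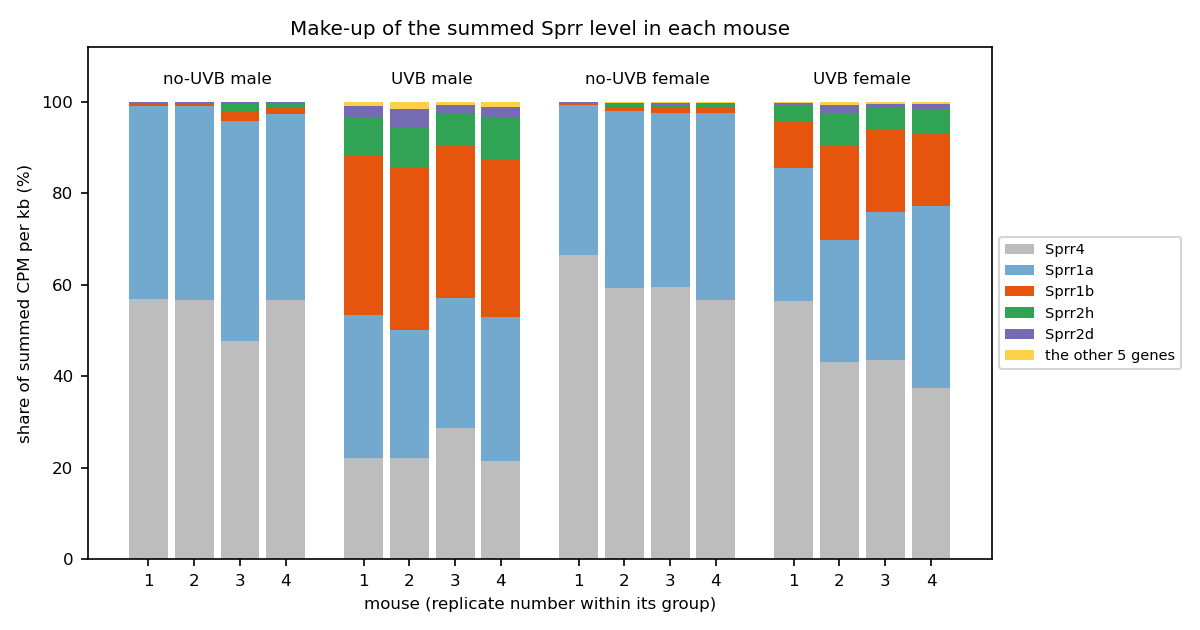
Share of each Sprr gene in the summed CPM per kb of the 10 genes, in percent, with 1 stacked bar per mouse. The Sprr1b share is 33.2 to 35.4% in the 4 UVB males, 10.3 to 20.6% in the 4 UVB females and at most 2.24% in the unirradiated mice.

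Below these 3 the order was the same in all groups for the next genes, with Sprr2h after them and then Sprr2d. Sprr2h reached 154 ± 42.4 CPM per kb in UVB males and 54.7 ± 15.4 in UVB females, and Sprr2d 52.2 ± 28.9 and 10.9 ± 4.90 (SD, n = 4). Sprr2e, Sprr2f, Sprr2b, Sprr3 and Sprr2a1 stayed below these at 0.151 to 9.18 CPM per kb in UVB males and 0.0637 to 2.21 in UVB females. Sprr2e stood above Sprr2f in 4 of 4 UVB males and in 2 of 4 UVB females, so their order in irradiated females was not fixed. Sprr2b and Sprr3 were also out of order between mice, with Sprr2b above Sprr3 in 1 of 4 UVB males.

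Markers of several cell types moved with UVB as well. Of the 6 keratinocyte markers, 3 were called higher in males and 1 in females, and their sum was 10703 to 16217 CPM in no-UVB and 24877 to 34548 CPM in UVB males, and 9377 to 14004 and 14884 to 18851 CPM in females. Per 1000 CPM of this sum, Sprr1b had 0.0903 to 0.516 CPM in no-UVB and 13.6 to 19.5 CPM in UVB males, and 0.199 to 0.323 and 5.14 to 10.8 CPM in females. Sprr2h had 0.0430 to 0.321 and 2.62 to 4.39 CPM in males and 0.106 to 0.231 and 1.57 to 3.40 CPM in females. Sprr2d had 0.0301 to 0.0695 and 0.661 to 1.85 CPM in males and 0.0485 to 0.0772 and 0.234 to 0.784 CPM in females. The ranges of these 3 genes before and after UVB were separate in both sexes on this scale too. Sprr1a was 1.57 and 1.34 times its no-UVB mean on this scale. Sprr4 was 0.971 times its no-UVB mean in males, with 2.99 to 3.82 CPM per 1000 CPM of markers before UVB and 2.86 to 3.45 after it, and the ranges overlapped. The rise of Sprr4 in males was thus no larger than that of the summed keratinocyte markers. That sum rose mostly through Krt1, Krt10 and Krt14, whose male means went from 835 to 7217, 4366 to 10129.7 and 1614 to 4295 CPM. Krt5, Dsp and Perp moved less, from 2839.5 to 3412, 2604 to 3280.5 and 1322 to 1809 CPM. Of 8 neutrophil markers Cxcr2 and Mmp8 were called higher in males and Cxcr2 in females, and their sum went from 7.41 to 14.5 CPM to 16.9 to 22.3 CPM in males and from 8.12 to 12.3 CPM to 12.5 to 18.2 CPM in females, with Ly6g at 0 in all irradiated mice. Fibroblast markers summed to 59360.5 to 65275 CPM in no-UVB and 19072 to 27503 CPM in UVB males, with 2 of 5 called lower. In females they summed to 13813 to 14039.8 and 9091 to 13683 CPM, with none called. Skeletal muscle markers summed to 14517 to 19302 CPM in no-UVB and 8699 to 11136 CPM in UVB males (1 of 5 called lower), and to 9422 to 13795 and 10383 to 13594 CPM in females. Adipocyte markers summed to 1426 to 2096 and 1097 to 1453 CPM in males and to 1213 to 2168 and 1200.1 to 2802 CPM in females, with none of 4 called. T cell markers summed to 31.5 to 41.2 and 19.2 to 28.5 CPM in males and to 41.5 to 78.04 and 36.1 to 49.8 CPM in females, and macrophage markers to 833 to 1015 and 668 to 833 CPM in males and to 727 to 1195 and 618 to 864 CPM in females. None of these 10 genes passed the fold of the call, while in males 4 T cell and 3 macrophage markers were lower, and Cd5 higher, at an edgeR adjusted p under 0.1. The part of these cell types in the Sprr changes was not tested.

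The 8 other Sprr identifiers of the cluster were also higher after UVB where they could be tested. In males 5 of the 8 were tested and all 5 were called higher, namely Sprr2g (log2 fold change 5.85), Sprr2i (5.16), Sprr2a3 (4.92), Sprr2j-ps (4.87) and Sprr5 (2.21). In females 4 were tested and called higher, Sprr2g at 4.25, Sprr2i at 3.97, Sprr2a3 at 2.35 and Sprr5 at 1.43. Sprr2g is the one with the largest change in both sexes and had 0.0921 to 0.951 CPM in unirradiated mice, 16.9 to 35.8 CPM in UVB males and 5.20 to 15.4 CPM in UVB females. After UVB all 5 were called higher in males than in females, by a median of 2.09 on the log2 scale, and none had a called difference between the sexes' responses. Sprr2a2 and Sprr2k were too scarce for a test, with means of 0.240 and 0.698 CPM in UVB males and 0 in unirradiated mice, and Sprr2c-ps had no count. Of the 100-base windows, 93.1% of those of Sprr2a2 and 36.2% of those of Sprr2a3 occur in transcripts of other genes. The counts of these 2 genes are therefore uncertain, like that of Sprr2a1.

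**Figure D5:**
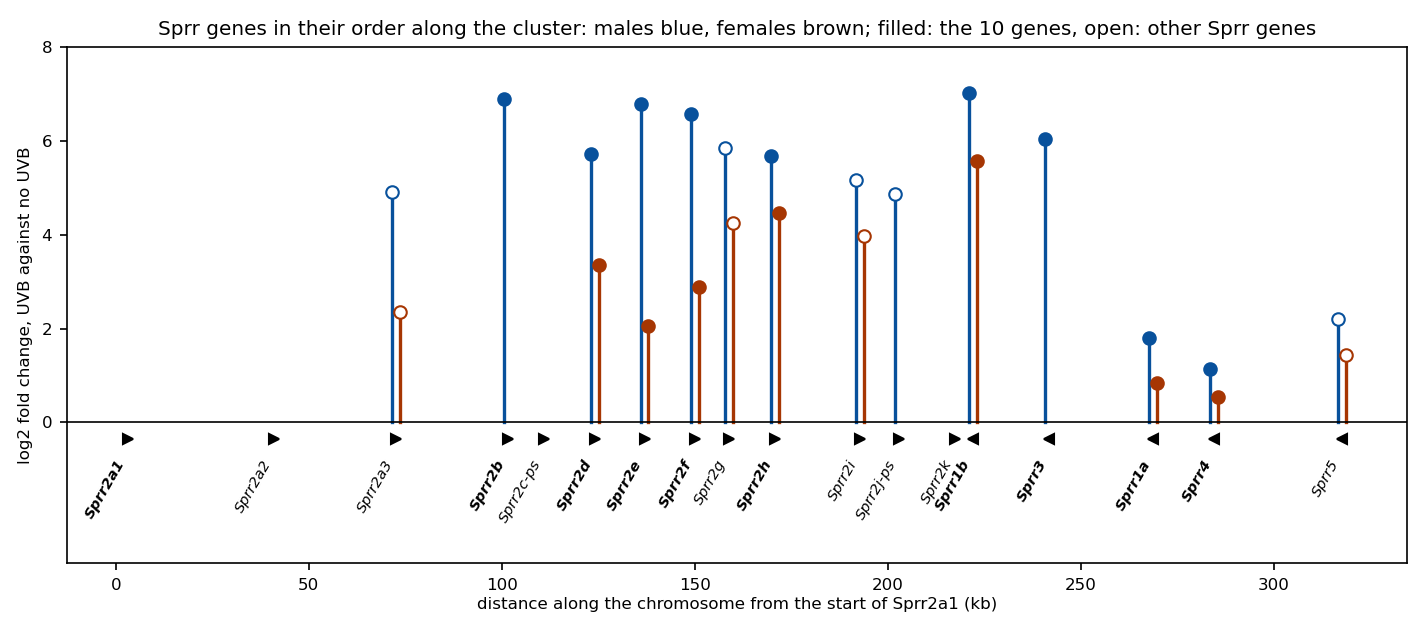
Log2 fold change after UVB of every tested Sprr identifier against its distance along the chromosome from the start of Sprr2a1 in kb, in males and females, with arrowheads for the strand. The tall bars run from Sprr2a3 to Sprr3, and Sprr1a, Sprr4 and Sprr5 at the far end lie at 1.79, 1.14 and 2.21 in males.

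Along the chromosome the size of the change was not spread evenly. From Sprr2a3 to Sprr3 every tested gene had a log2 fold change of 4.87 to 7.03 in males, while the 3 genes that follow, Sprr1a, Sprr4 and Sprr5, had 1.14 to 2.21. These 3 lie on the minus strand, as do Sprr1b and Sprr3 with their large changes, and every tested gene of the plus strand is among those with a large change. In females the contrast was smaller, with 2.05 to 5.57 for the tested genes from Sprr2a3 to Sprr1b and 0.55 to 1.43 for the last 3.

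The partners of SPRR proteins in the cornified envelope rose with them in part. Of 16 other envelope components 10 were called higher in males and 1 lower, and 6 of 15 tested were called higher in females. The median log2 fold change was 1.46 and 0.73. Filaggrin (Flg), the keratin-bundling protein of the granular layer, led in both sexes, with log2 fold changes of 3.86 ± 0.208 in males (SE, edgeR adjusted p = 1.67e-06) and 2.88 ± 0.297 in females (SE, edgeR adjusted p = 0.000386). The smallest called change in females was that of involucrin (Ivl), a transglutaminase substrate like the SPRRs, at 1.41 ± 0.137 (SE, edgeR adjusted p = 0.000229). Trichohyalin (Tchh), a protein of the inner root sheath, was the one called lower in males, at -1.24 (edgeR adjusted p = 0.0854), and without no-UVB males 3 and 4, which held 47.9 and 60.3 CPM of it, its log2 fold change was 0.00. The Tchh call was kept only without no-UVB male 1 or 2 when single mice were left out.

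Some of the enzymes that cross-link SPRR proteins were called as well. Of 4 transglutaminases Tgm3 and Tgm1 were called higher in males, at 2.85 ± 0.164 (SE, log2, edgeR adjusted p = 1.59e-06) and 1.39 ± 0.128 (SE, log2, edgeR adjusted p = 1.85e-05). In females only Tgm3 was called, at 1.62 ± 0.271 (SE, log2, edgeR adjusted p = 0.00449). Tgm3 had 6.45 to 9.53 CPM in no-UVB males and 48.8 to 71.4 CPM in UVB males, and 2.68 to 7.40 CPM in no-UVB and 14.5 to 22.8 CPM in UVB females. The male response of Tgm3 was larger by 1.22 ± 0.338 (SE, log2, edgeR adjusted p = 0.0646).

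Of 22 transcription factors known from keratinocyte differentiation, 4 were called higher in males and 1 lower, and 1 higher in females, where 4.08%, 3.31% and 1.63% of all tested genes were. The single calls are thus near the share of all genes. Ehf, an Ets-family factor of epithelia, had the largest rise in males, at 2.05 ± 0.147 (SE, log2, edgeR adjusted p = 5.03e-06). Fosl1, an AP-1 subunit, was the factor called in females, at 1.28 ± 0.331 (SE, log2, edgeR adjusted p = 0.0272), and the call was lost when reads were counted without regard to strand (1.02, edgeR adjusted p = 0.154). Fos, another AP-1 subunit, was called lower in males, at -2.87 ± 0.808 (SE, log2, edgeR adjusted p = 0.0228), with 148 and 250.4 CPM in no-UVB males 1 and 2, 35.8 and 27.2 CPM in males 3 and 4, and 10.5 to 21.0 CPM after UVB. The females had 10.96 to 25.5 CPM of Fos in all, so the no-UVB males stood above every other group. The log2 fold change of Fos was -2.15 without no-UVB male 2 and -3.64 without no-UVB males 3 and 4. The call was lost with a replicate block (-2.34, edgeR adjusted p = 0.149). RNA levels say nothing of factor activity.

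The stress keratins of injured epidermis had medians on the log2 scale of 4.87 for the male and 2.06 for the female response. Krt6a, Krt6b and Krt16 were called higher in each sex and had a larger response in males, and Krt17 was not called in any of these. Krt6b had the largest change, 8.72 ± 0.387 in males (SE, log2, edgeR adjusted p = 1.62e-06) and 4.85 ± 0.416 in females (SE, log2, edgeR adjusted p = 0.000187). Krt6a had the smallest called change, 3.63 ± 0.270 in males (SE, log2, edgeR adjusted p = 1.36e-05) and 1.14 ± 0.373 in females (SE, log2, edgeR adjusted p = 0.0688). The female call of Krt6a was kept only without no-UVB female 1 or UVB female 1 when single mice were left out, and the edgeR adjusted p was up to 0.195 without 1 mouse and 0.144 with a replicate block.

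The genes whose pattern over the 16 mice lay nearest to the mean of the 9 tested Sprr genes were sought among 15110 others, by the root mean square difference of centred log2 CPM. They were Il36b (0.43), a cytokine gene of the interleukin 36 family, Chga (0.51), which encodes a secretory granule protein, Gjb6 (0.51) and Gjb2 (0.54), which encode connexins of gap junctions, and Slpi (0.52), which encodes a protease inhibitor of epithelia. Il36b had 3.26 to 9.70 CPM in no-UVB and 108 to 142 CPM in UVB males, and 4.14 to 8.56 and 32.0 to 83.1 CPM in females. By the same measure Sprr3 and Sprr2f lay nearest to the family mean, at 0.34 and 0.35. Sprr4 and Sprr1b lay farthest, at 1.53 and 1.52. Each of the 9 genes is part of that mean, so these distances cannot be set beside those of genes outside the family. A prior count of 2 was added for log2 CPM, which narrows changes that start from few counts. Sprr3 and Sprr2f had 2 and 3 counts over the no-UVB males, so their closeness to the mean is partly built in. The measure describes these 16 libraries and the points share their treatment groups.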

How the data were processed

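RNA of whole dorsal skin from 16 mice was enriched for poly(A) and made into directional libraries. Alignment by the authors was to GRCm39, with STAR (version not given in the sources used here), whose raw counts per gene they deposited, not normalized, in 3 columns for the 3 strand settings. The deposited counts of the strand that the kit makes were used here, and the opposite strand held 3.63 to 4.23% of the counts. Reads on genes numbered 16495776 to 33404831 (median 21767339). Of each library 10.12 to 16.36% was unmapped, multimapping included, 8.3 to 13.69% lay outside genes and 1.17 to 1.34% was ambiguous. These lines that name no gene were left out of library sizes and tests.

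Names, positions and exon lengths were taken from GENCODE M39, which holds 54749 of the 55359 identifiers. Libraries of a group were checked for duplicates and differed well beyond sampling noise (chi-square per degree of freedom 9.54 to 98.3). In edgeR 4.0.16 (R 4.3.3) genes were kept by filterByExpr, scaled by TMM and tested by the robust quasi-likelihood test with Benjamini-Hochberg adjustment over all tested genes. Each response to UVB was fitted on 8 mice, those of 1 sex, and comparisons of the sexes on all 16. A gene was called at an adjusted p under 0.1, and for responses to UVB also at a log2 fold change past 1, the thresholds of the study's methods, which used DESeq2 with shrunken fold changes. A standard error is the log2 fold change over the root of its F value. The steps were tested on simulated data. Ratios of summed counts have exact conditional binomial intervals at 95%, which cover counting error only.

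The 10 genes are all named. Of each other list its counts are given, with the called genes of the largest and smallest change in each sex, every other Sprr gene with a count, and the 5 genes of most like pattern among those with a mean of at least 1 CPM. The genes and lists were chosen with earlier results of these data known. Motifs were searched in RefSeq's promoters (GRCm38.p6). Python 3.11.15, pandas 2.3.3 and matplotlib 3.10.9 served for tables and plots. Alternatives were other strand settings, scalings, filters, thresholds and tests (DESeq2 1.42.0, apeglm 1.24.0), thinned counts, a replicate block and each mouse left out. Protein sequences were not used here.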

Additional observations from a re-analysis of the deposited data

Results flagged for a closer look

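Of 40 sets of 4 mice (10 genes in 4 groups), 7 held 1 mouse far from the other 3 by Dixon's criterion. In 5 of these a mouse with 1 or 2 counts stood against 3 mice without a count, which meets the criterion by construction, so that its chance rate of about 1 in 20 does not apply to them. These were Sprr2a1 in no-UVB male 4 (0.0573 CPM), Sprr2b in no-UVB male 1 (0.0466 CPM) and no-UVB female 3 (0.0327 CPM), and Sprr3 in no-UVB male 3 (0.0866 CPM) and no-UVB female 2 (0.0396 CPM). In the other 2, Sprr2e was at 10.02 CPM in UVB male 2 against 3.91 to 4.92 CPM, and Sprr2f at 0.463 CPM in UVB female 1 against 1.59 to 1.67 CPM. The responses of males and females differed for Sprr2e by 4.74 and for Sprr2f by 3.70 on the log2 scale, by edgeR's test of the interaction. Outside the strand used, Sprr2k had 16 to 47 counts on the opposite strand in UVB males and 0 in no-UVB males.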

How the results depend on the processing

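Of 1045 values of single Sprr genes under other settings, 993 kept their direction and their side of the threshold, among them 193 of 193 for the male and 138 of 140 for the female response. Requiring at least 10 counts in every mouse leaves fewer genes to test and left 4 called higher in males, 2 in females, 2 in males over females after UVB, 0 in the difference between the responses and 0 lower in unirradiated males. Thinning to the smallest library gave 3 in females, 1 in the difference and 0 lower in unirradiated males. An adjusted p under 0.05 gave 1 in the difference and 0 lower in unirradiated males, and testing every gene with at least 1 count gave 1 in the difference. Leaving out no-UVB males 3 and 4, chosen after seeing the data, gave 5 in the difference and 0 lower in unirradiated males. With single mice left out, 9 were called in males, 4 to 8 in females (8 without no-UVB female 1), 1 to 5 in the difference (5 without no-UVB male 3), 0 to 2 lower in unirradiated males and 6 to 8 after UVB.

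Changes of direction were found among uncalled differences of unirradiated males and females and 3 other values, and the cause was not tested. Without males 3 and 4 the log2 difference was -1.29 for Sprr1b, -1.79 for Sprr2h and -1.51 for Sprr3, and after thinning -1.52 for Sprr2b and 0.33 for Sprr2d. With single mice left out it ran from -0.48 to 0.08 for Sprr1a, -0.30 to 0.75 for Sprr1b, -1.50 to 1.62 for Sprr2b, -0.50 to 0.20 for Sprr2d, -0.62 to 0.64 for Sprr2h and -1.50 to 2.38 for Sprr3. The difference between the responses of Sprr3 was -1.33 after thinning and -1.10 to 2.78 with single mice left out, and Tchh in males was 0.00 without males 3 and 4. Where the left-out mice held all counts of a group, as for Sprr3 without no-UVB male 3 or female 2 and Sprr2b without no-UVB male 1 or female 3, the value depends on the fit's prior count and gives no direction.

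Counts over all genes moved more. Genes higher in males numbered 675, and 1027 without males 3 and 4, 1124 with every gene tested and 4802 with no requirement on the fold. Genes lower in males numbered 547, and 359 with at least 10 counts, 923 with every gene and 5051 with no fold. In females 275 were higher (180 with at least 10 counts, 2162 with no fold) and 183 lower (106 with apeglm, 1787 with no fold). A larger male response was called for 478 genes, and for 832 without males 3 and 4, 1102 by DESeq2, 229 with every gene, 780 scaled without the 100 most abundant genes and 171 at 0.05, and a smaller one for 740 (317 at 0.05). With single mice left out these ran from 163 (without UVB male 1) to 835 (without UVB female 3) and from 298 (without UVB male 1) to 1020 (without no-UVB male 3), so the shares of all genes set beside the Sprr genes move as well. Lower in unirradiated males were 797 (440 at 0.05), and higher after UVB 2222 (1434 with every gene). With single mice left out the lower ones without UVB ran from 430 to 943 and the 1255 higher ones from 762 to 1388 (both lowest without no-UVB male 2), and the higher ones after UVB from 1322 (without UVB female 1) to 2341. Upper quartile scaling turned the split of higher and lower from 675 and 547 to 579 and 705 in males, and from 2222 and 2169 to 1659 and 2736 after UVB.

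Replicate numbers do not pair the mice, since same-numbered deviations correlated at -0.07 to 0.02 in males and -0.11 to 0.22 in females. With the replicate number as a block 9 genes were called in males, 5 in females, 3 in the difference (Sprr2d added, 2.33, edgeR adjusted p = 0.0846), 1 lower in unirradiated males and 7 after UVB, and the calls of Fos and Tchh in males and Krt6a in females were lost. Depth limits Sprr2a1, Sprr2b and Sprr3, which had at most 9 counts over the 4 mice of either unirradiated group.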
